A study of Mus musculus with 4 samples.

Results

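The genes described here are Ins1, Ins2 and Iapp, 3 of the 32288 features counted in single cells of the injured mouse pancreas. They were chosen by name, as the genes whose products are the insulin and amylin of the beta cell, and not by any measured value. Pancreata came from 4 mice of the genotype Ptf1aCre-ERTM;ROSAYFP/+, backcrossed into CD-1, in which tamoxifen switches on a Cre driven by the acinar gene Ptf1a and thereby marks acinar cells with EYFP. All 4 mice received tamoxifen by gavage (5 mg per day over 2 weeks) and then caerulein, a peptide that overstimulates acinar cells and causes pancreatitis, given 2 times per day on 5 days per week from 10 weeks of age. Injury lasted 2 weeks in 2 mice and 4 weeks in 2 mice, and mice without caerulein were not analysed here. EYFP-positive cells were sorted and profiled with 10x Genomics 3' chemistry, so the sort was aimed at acinar cells and their descendants and not at islet cells.

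Insulin is made in beta cells as a single-chain precursor that is cut to the mature hormone in secretory granules. The mouse carries the ancestral gene, Ins2, and a retroposed copy, Ins1, and beta cells express both. Iapp encodes islet amyloid polypeptide (amylin), a peptide packed into the same granules, and it is also known from some delta cells and gut endocrine cells. Because insulin messages are among the most abundant RNAs of the islet, a lysed beta cell can leave insulin RNA in the fluid that surrounds other cells.

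In the GENCODE M21 annotation of GRCm38, Ins1 (ENSMUSG00000035804.5) lies on the plus strand of chromosome 19 at 52264297 to 52265476 and has 2 exons. Ins2 (ENSMUSG00000000215.11) lies on the minus strand of chromosome 7, where the record spans 142678656 to 142743381 because it includes longer transcripts. Its main transcript covers 142678659 to 142679726 in 3 exons. Iapp (ENSMUSG00000041681.2) lies on the plus strand of chromosome 6 at 142298423 to 142303961 and has 3 exons. The insulin genes are similar copies, so the last 120 coding bases, stop codon included, are shown for both from that annotation and build. Bases that differ are in capitals (Ins1 chr19:52264831-52264950, plus strand, and Ins2 chr7:142678713-142678832, minus strand).
Ins1: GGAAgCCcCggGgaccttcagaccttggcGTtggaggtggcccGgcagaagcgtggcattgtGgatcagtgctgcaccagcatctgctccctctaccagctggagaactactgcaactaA
Ins2: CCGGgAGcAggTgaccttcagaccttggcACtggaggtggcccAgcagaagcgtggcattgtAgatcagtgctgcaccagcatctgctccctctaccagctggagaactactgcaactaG
These windows were alike at 107 of 120 bases (89.2%), and the longest run without a difference was 56 bases, also the longest run shared by the whole transcripts. After the stop codon the longest shared run was 22 bases. Reads that fall inside a shared run cannot be told apart, and how the deposited counts treat them is not given in the sources used here, so the split between Ins1 and Ins2 is uncertain where their sum is not. Iapp and Ins2 transcripts shared no run longer than 8 bases.

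Promoters of 2 of the 3 genes were found among the RefSeq promoters of GRCm38.p6, for Ins1 and Iapp. They are shown because both genes are active together in the 3 cells described next, while Iapp is also high in cells with little insulin. Each is the 250 bases before the start that RefSeq gives, which for Iapp lies 2 bases inside the GENCODE record, read 5′ to 3′ (Ins1 chr19:52264047-52264296 and Iapp chr6:142298175-142298424, both plus strand). Capitals mark the letters TAAT, the core that homeodomain factors such as Pdx1 bind, and CATCTG, an E-box, on either strand.
Ins1: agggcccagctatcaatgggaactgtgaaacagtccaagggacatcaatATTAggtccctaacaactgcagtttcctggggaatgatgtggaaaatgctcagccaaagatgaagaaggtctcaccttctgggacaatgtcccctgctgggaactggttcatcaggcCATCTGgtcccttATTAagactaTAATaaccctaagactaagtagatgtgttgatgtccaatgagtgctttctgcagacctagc
Iapp: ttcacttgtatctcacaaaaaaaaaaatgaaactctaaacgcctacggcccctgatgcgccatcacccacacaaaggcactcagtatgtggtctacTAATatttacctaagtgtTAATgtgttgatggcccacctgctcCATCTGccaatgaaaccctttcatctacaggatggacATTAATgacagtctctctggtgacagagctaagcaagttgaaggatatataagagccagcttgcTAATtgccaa
The Ins1 window held 3 copies of TAAT and the Iapp window 5, of which 1 pair overlaps on opposite strands. Among 32851 promoters of this length, 54.9% held at least 1 copy, 17.3% held 3 or more and 5.54% held 5 or more. Each window held 1 copy of CATCTG, and 14.4% of all promoters held at least 1.

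The merged table held 21140 cells. Between 4715 and 6255 cells came from each mouse, and libraries ranged from 72459531 to 103610807 UMIs (counted RNA molecules). A cell type had been deposited for 13362 cells, all of them with EYFP UMIs. The other 7778 cells, some of them also with EYFP UMIs, had no deposited type. In those, clusters made without the 3 genes were named from markers, and T, B, macrophage and fibroblast-like cells, which do not make these hormones, serve below as the comparison class. EEC, the deposited enteroendocrine type, carried its defining markers: 85.7% of its cells had the granule gene Chga, against 1.85% of the comparison class. In 67 cases a cell barcode occurred in more than 1 library (139 cells), and none of the cells with 10 or more UMIs of a member was among them.

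Nearly all insulin RNA of the data set lay in 3 cells. Ins2 had 85915 UMIs in all, divided into 1250 and 31146 for 2-week mice 1 and 2 and 90 and 53429 for 4-week mice 1 and 2. Ins1 had 434 and 12686 UMIs at 2 weeks and 35 and 25631 at 4 weeks, 38786 in all. Both genes were thus high in 1 mouse of each time point and low in the other, and the time points overlapped. In 2-week mouse 2 a single cell held 98.2% of the Ins2 UMIs, and in 4-week mouse 2 the top cell held 64.3%. In 2-week mouse 1 and 4-week mouse 1 the top cell held 3.44% and 20.0%. Across the data set the 3 cells with the most Ins2 held 96.4% of the Ins2 UMIs, 97.0% of the Ins1 UMIs and 69.2% of the Iapp UMIs. After them the next cell had 43 Ins2 UMIs, and the 3 cells are called insulin-rich from here on (100 or more Ins2 UMIs, a line drawn with these values known).

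Insulin-rich cell 1, from 4-week mouse 2 and without a deposited type, had 18744 Ins1, 34352 Ins2 and 4611 Iapp UMIs among 79467. Insulin-rich cell 2, from 2-week mouse 2, had 12484 Ins1, 30572 Ins2 and 2786 Iapp UMIs among 74149. Insulin-rich cell 3, again from 4-week mouse 2 and without a type, had 6408 Ins1, 17881 Ins2 and 1515 Iapp UMIs among 37736. Insulin made up 66.8%, 58.1% and 64.4% of all UMIs of these cells, and Iapp 5.80%, 3.76% and 4.01%. Cells 1 and 3 fell in the islet endocrine-like clusters, which had been made without the insulin genes and Iapp. The name of that class does not separate islet cells from EEC. Without the insulin-rich cells, Chga was found in 73.8% of the islet endocrine-like class and 85.7% of EEC. Ghrl (ghrelin) was found in 67.4% of each, but also in 72.4% of Acinar cells and 40.3% of the comparison class. The share of cells with Ghrl thus marks neither class. By level, in CPM (counts scaled to a common total), Ghrl was at 21137 in the islet endocrine-like class and 69791 in EEC. It was at 166 CPM in Acinar cells and 225 CPM in the comparison class. Cell 2 carries the deposited subtype ECL (Tac1+), a label for enterochromaffin-like cells with the tachykinin gene Tac1, and it had 0 Tac1 UMIs. Tac1 was low in this subtype in general. Its median was 1 UMI in the 179 ECL cells with 0 Iapp and 0 in the 21 with 1 to 9 Iapp UMIs. In their libraries 2.11%, 2.07% and 9.24% of cells were deeper.

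These cells also carried most of the other beta cell genes. Of the 12 beta cell genes present in the table, insulin left out, they had 12, 10 and 10. Mafa, a beta cell transcription factor of the insulin promoter, had 14, 19 and 15 UMIs in cells 1 to 3. G6pc2, a glucose-6-phosphatase subunit of the islet, had 40, 17 and 13 UMIs, and Ucn3, a peptide of mature beta cells, had 12, 9 and 21. Slc2a2, the glucose transporter of mouse beta cells, had 9, 2 and 23 UMIs, and the granule zinc transporter Slc30a8 had 7, 12 and 14. The potassium channel gene Kcnj11 had 2 UMIs in cell 1 and 0 in cells 2 and 3. In the remaining EEC cells G6pc2 was at 0 CPM and Mafa was found in 0.83% of cells. Pdx1 and Abcc8, by contrast, were common in those EEC cells, found in 51.4% and 38.2% of them.

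The defining hormones of other islet cells had few or no UMIs in the insulin-rich cells. Gcg (glucagon) was at 0 UMIs in all 3. Sst (somatostatin) was at 0, 1 and 0, Ppy (pancreatic polypeptide) at 2, 0 and 0, Pyy (peptide YY) at 8, 2 and 1 and Ghrl (ghrelin) at 0, 1 and 0 UMIs. Of the other 4 genes of that list, Gip and Gast were at 0 in all 3 cells, Cck (cholecystokinin) was at 0, 5 and 0, and Ttr, a carrier protein that several islet cell types express, was at 42, 10 and 5 UMIs. All 8 granule and prohormone processing genes were present in the 3 cells, in CPM above or below EEC depending on the gene. These CPM are scaled to totals of which insulin made up 66.8%, 58.1% and 64.4%, which lowers the CPM of every other gene. Chga was at 1988, 2657 and 2411 CPM, against 1276 CPM in the remaining EEC cells, and Pcsk2, a convertase that cuts proinsulin, at 1095, 593 and 848 against 319. Chgb, another granin, was lower at 617, 459 and 477 CPM against 4391. Cpe, the carboxypeptidase that trims the cut chains, was at 503, 270 and 503 against 683. How Chgb and Cpe compare once insulin and Iapp are left out of the totals was not tested. The 11 acinar enzymes together took 0.189%, 0.127% and 0.241% of the UMIs of the 3 cells, shares that insulin lowers in the same way. EYFP, the lineage mark, had 0 UMIs in cells 1 and 3 and 5 UMIs in cell 2. Cell 2 stood apart from the others in endocrine transcription factors, with 8 Neurog3 (against 0 and 0), 22 Neurod1 (against 7 and 4) and 15 Insm1 UMIs (against 3 and 2). Whether cell 2 is 1 cell or a droplet with RNA of a second cell was not tested.

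**Figure D1:**
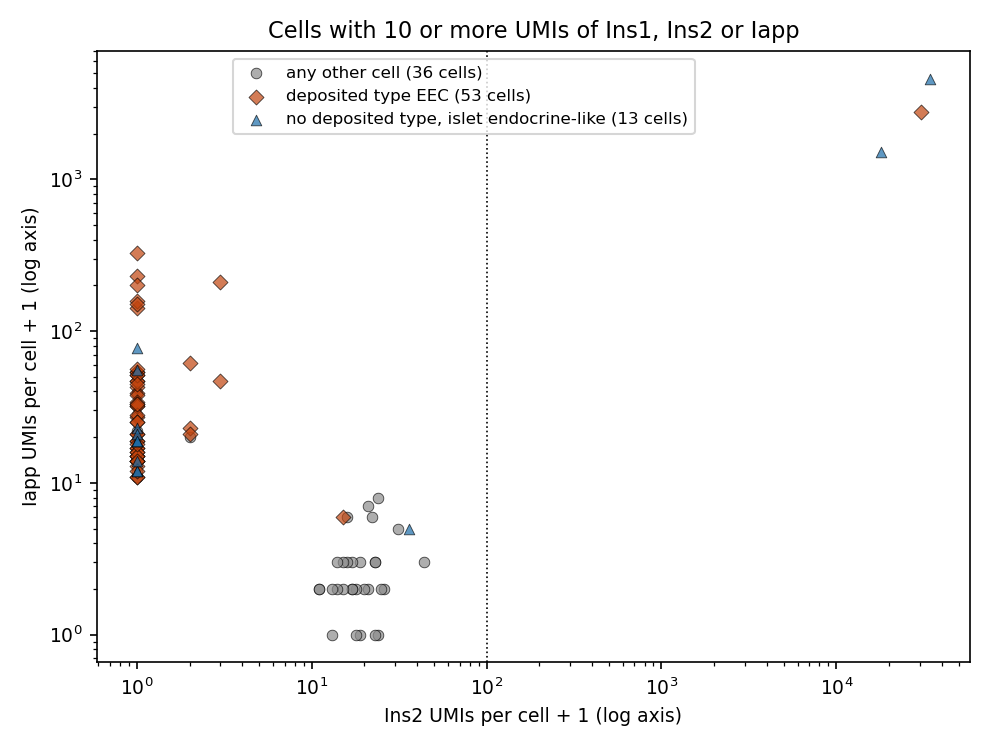
Each point is 1 of the 102 cells with 10 or more UMIs of Ins1, Ins2 or Iapp, placed by its Ins2 UMIs plus 1 (x, log axis) and its Iapp UMIs plus 1 (y, log axis), with colour and shape for the class of the cell and the dotted line at 100 Ins2 UMIs. The 3 insulin-rich cells stand alone at the top right, 67 cells with Iapp of 10 or more have at most 2 Ins2 UMIs, and 32 cells have 10 to 43 Ins2 UMIs with fewer than 10 of Iapp.

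A second group of cells held moderate insulin. Apart from the insulin-rich cells, 32 cells had 10 or more Ins2 UMIs, from 10 to 43 with a median of 17.5, and 29 of the 32 were in 2-week mouse 1, a library without an insulin-rich cell. The other 3 were 1 cell of 4-week mouse 1 and 2 cells of 4-week mouse 2. They belonged to many classes: 10 were Acinar, 4 macrophage-like, 4 unnamed, 2 each Acinar.Prolif (proliferating acinar), T or NK-like and dendritic-like, and 1 each of 8 further classes. All 32 had Ins1 UMIs as well, and Ins1 was 27.2% of their insulin (228 Ins1 to 609 Ins2 UMIs), within the 26.4% to 35.3% of the insulin-rich cells. Insulin was between 0.0148% and 1.32% of their UMIs. They had a median of 1 and at most 3 of the 12 beta cell genes, and 27 of them had an Iapp UMI. Their Iapp came to 64 UMIs in all, or 10.5 per 100 of Ins2, within the 8.47 to 13.4 of the insulin-rich cells.

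In the remaining cells Ins2 was thinly spread over every type. With cells of 10 or more Ins2 UMIs left out, Acinar cells had 0.178 and 0.163 Ins2 UMIs per cell at 2 weeks and 0.0157 and 0.258 at 4 weeks. EEC cells had 0.106 and 0.101, then 0.0373 and 0.155. The comparison class of T, B, macrophage and fibroblast-like cells had 0.105 and 0.0628 at 2 weeks and 0.00239 and 0.129 at 4 weeks. In each of these 3 classes 4-week mouse 1 was lowest and 4-week mouse 2 highest. For Ins1, cells of 10 or more Ins1 UMIs were left out in place of those of Ins2. Ins1 was lower, with 0.0761 and 0.0652 UMIs per Acinar cell at 2 weeks and 0.00656 and 0.105 at 4 weeks. In the comparison class Ins1 had 0.0711 and 0.0247, then 0.00119 and 0.0475, so that 4-week mouse 1 was again lowest but 2-week mouse 1 was highest. The place of 2-week mouse 1 depended on this choice, since its Ins1 values still held cells with 10 or more Ins2 UMIs. In cells with fewer than 10 UMIs of each of the 3 genes, 29 of the 77 Ins1 UMIs of its comparison class remained. In its Acinar cells 79 of 144 remained, and in the other mice all remained in both classes. All cells without a deposited type had, as 1 class, 0.121 and 0.0763 Ins2 UMIs per cell at 2 weeks and 0.00527 and 0.168 at 4 weeks, a pattern over the mice like that of the typed cells. Among the 8 deposited types the mean over mice ran from 0.209 in Acinar.Prolif to 0.0728 in Tuft/EEC.Progenitor, and the ranges of all neighbours in that order overlapped. Among the 9 tuft and enteroendocrine subtypes it ran from 0.141 in Tuft-2 to 0.0343 in Tuft-1, again with overlap of all neighbours.

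**Figure D2:**
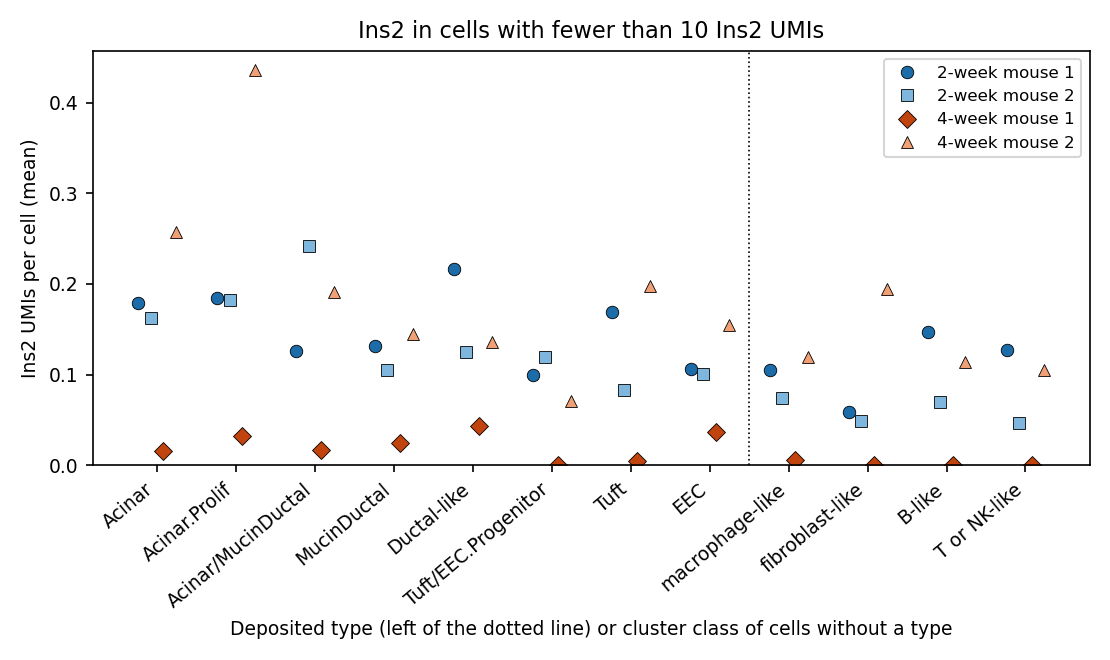
Mean Ins2 UMIs per cell (y) in cells with fewer than 10 Ins2 UMIs, by class (x), with 1 point per mouse and no error bars. The 2 acinar types reach 0.258 and 0.435 in 4-week mouse 2, and 4-week mouse 1 is the lowest mouse in all 12 classes.

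Among Acinar cells, EEC and the comparison class, the share of cells with any Ins2 UMI was higher in the deeper class in 3 of the 4 mice, while in 4-week mouse 1 it was highest in EEC. Across mice it did not follow depth. It was 13.0%, 14.8%, 1.44% and 21.1% of Acinar cells in 2-week mice 1 and 2 and 4-week mice 1 and 2, where median depths were 26482, 24008, 27905.5 and 32664.5 UMIs. It was 7.20%, 9.19%, 3.39% and 13.4% of EEC cells, at 14681.5, 13243, 11594 and 11136 UMIs. In the comparison class it was 5.27%, 5.15%, 0.239% and 11.3%, at 5657, 5596, 4443.5 and 4239 UMIs. After thinning of every cell to 1500 UMIs the order turned in 3 mice: the comparison class was at 2.61%, 1.74% and 3.81% in 2-week mice 1 and 2 and 4-week mouse 2, and Acinar cells at 1.44%, 1.10% and 1.498%. EEC cells came to 1.24%, 1.39% and 1.86% in these mice, also under the comparison class. In CPM, insulin-rich cells left out, EEC was also lower than the comparison class in these mice, at 10.4, 7.21 and 12.6 against 37.6, 9.10 and 23.8. In 4-week mouse 1, which had the fewest insulin UMIs, EEC exceeded the comparison class, with 11 Ins2 UMIs in 10 of 295 EEC cells (3.39%, 95% exact binomial interval 1.64% to 6.15%) against 2 UMIs in 2 of 838 cells (0.239%, 0.0289% to 0.859%). Thinned, these shares were 0.373% and 0.0593%, and the levels were 2.89 and 0.448 CPM. The intervals cover counting error only.

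Taken over all cells, EEC had 197 times the mean Ins2 of the comparison class and 216 times its mean Ins1, averaged over mice. Both ratios rested on insulin-rich cell 2: without the 3 insulin-rich cells they were 1.04 and 0.936. The mice then went different ways, with Ins2 ratios of 0.661 in 2-week mouse 1, 1.60 in 2-week mouse 2, 15.6 in 4-week mouse 1 and 1.2001 in 4-week mouse 2. The Ins1 ratios in the same order were 0.558, 2.03, 0 and 1.09. With 2-week mouse 1 left out as well, the averaged ratios were 1.51 for Ins2 and 1.39 for Ins1. With another mouse left out in its place they were 0.944 to 0.971 and 0.738 to 0.943, so that neither average kept a direction. In 2-week mouse 1, cells of 10 or more UMIs held 119 of the 210 Ins2 UMIs of the comparison class. Without such cells in both classes, EEC there had 0.106 Ins2 UMIs per cell against 0.105, and the other mice kept their Ins2 ratios. By that measure Ins2 was not lower in EEC in any mouse, unlike in CPM. Ins1, without cells of 10 or more Ins1 UMIs, stayed lower in EEC of 2-week mouse 1, at 0.0492 against 0.0711. Ins1 was listed at 0 UMIs in the 295 EEC cells of 4-week mouse 1, which at 3 counts allows up to 1.02% of cells with a UMI (95% exact binomial upper limit 1.24%).

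The proportion of the 2 insulin genes was compared between classes within each mouse. In cells with fewer than 10 UMIs Ins1 was 24.5% and 26.1% of insulin UMIs at 2 weeks and 26.04% and 28.7% at 4 weeks. Acinar cells gave 23.4%, 28.6%, 29.4% and 29.0% in the same order. The comparison class gave 24.2%, 28.2%, 33.3% and 26.9%, where the third value rests on 3 UMIs. EEC cells gave 19.4%, 33.3%, 0% (of 10 UMIs) and 25%. The exact intervals of these 3 classes overlapped within each mouse. In 4-week mouse 1 the 26.04% pools cells that differed: Ins1 was 54.2% of insulin UMIs in untyped cells (13 of Ins1 to 11 of Ins2, 95% exact interval 32.8% to 74.4%) and 16.7% in typed cells (8.92% to 27.3%). The insulin-rich cells had 35.3%, 29.0% and 26.4%. Cell 1, at 35.3%, was above the 26.5% to 31.0% interval of all cells under 10 UMIs in its mouse, and cell 3, from the same mouse, was just below it at 26.4%.

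**Figure D3:**
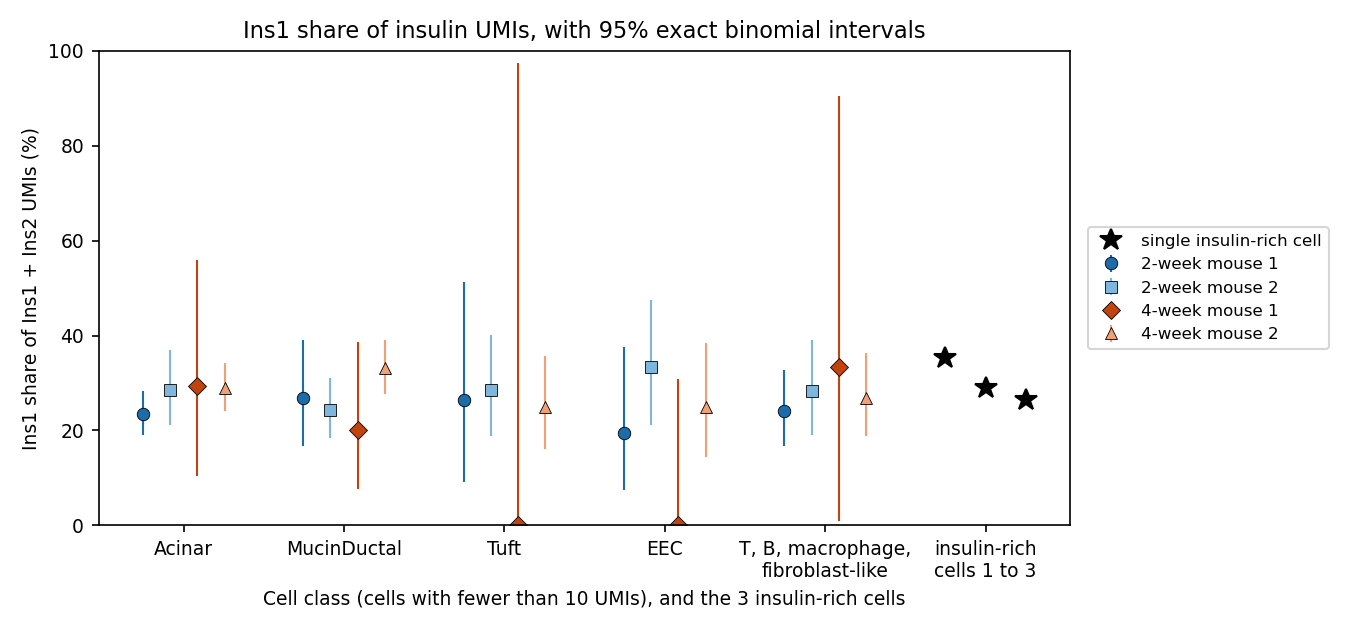
Ins1 as a percent of Ins1 plus Ins2 UMIs (y) in cells with fewer than 10 UMIs of a gene, by class and mouse, with 95% exact binomial intervals, and in the 3 insulin-rich cells (stars, which have no interval drawn). Within each mouse the intervals of the 5 classes drawn overlap, and of the stars at 35.3%, 29.0% and 26.4% the first, from 4-week mouse 2, lies above the points of these classes in its own mouse.

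Iapp followed another pattern and marked endocrine cells in every mouse. It had 1120 and 3768 UMIs at 2 weeks and 1078 and 6909 at 4 weeks, and 24, 13, 19 and 14 cells with 10 or more. Of these 70 cells, 3 were insulin-rich, 61 had 0 Ins2 UMIs and the other 6 had 1 or 2. Among the 67 that were not insulin-rich, Iapp ranged from 10 to 327 UMIs with a median of 22, 64 had 0 Ins1 UMIs and 60 had EYFP UMIs. Of those 60 cells, 51 were EEC. All cells with a deposited type have EYFP UMIs, so the count of 60 is no result on lineage. In contrast to Ins2, 4-week mouse 1 had 19 of the high cells, second among the 4 mice.

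EEC cells without insulin-rich cell 2 had 2.98 and 2.24 Iapp UMIs per cell at 2 weeks and 2.82 and 1.85 at 4 weeks. In the comparison class the means were 0.0298 and 0.0103 at 2 weeks and 0.00716 and 0.0147 at 4 weeks. EEC was higher by 100-, 218-, 393- and 125-fold in the 4 mice, all mice in 1 direction. The 51 EEC cells with 10 or more Iapp UMIs weighed heavily: with all such cells left out, the ratios were 19.9, 23.3, 19.9 and 14.3. EEC cells are deeper, and in CPM the ratios were 41.7, 108, 162 and 55.3. With every cell thinned to 1500 UMIs the ratios of the means were 38.6, 70.7, 170 and 53.9, and with the insulin-rich cells included the ratio of the unthinned 4-mouse means was 285. An Iapp UMI was found in 22.7%, 11.7%, 9.83% and 11.0% of EEC cells and in 1.95%, 1.03%, 0.716% and 1.47% of the comparison class, or thinned in 11.3%, 4.73%, 5.92% and 5.69% against 0.579%, 0.3327%, 0.204% and 0.464%. In no mouse did the T or NK-like, B-like, macrophage-like or fibroblast-like cells, taken singly, exceed 0.0769 Iapp UMIs per cell. Types were not tested against each other, because the same counts had served to define them.

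The next type by level was Ductal-like, with 0 to 1.73 Iapp UMIs per cell over the mice, below the lowest EEC mouse. Its level rested on 3 cells of 10 or more. From there down the ranges of neighbouring types overlapped, and Acinar cells had 0.0664 and 0.0309 Iapp UMIs per cell at 2 weeks and 0.0197 and 0.0325 at 4 weeks.

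At low counts the balance of Iapp to Ins2 also set EEC apart. In cells with fewer than 10 UMIs of a gene, Iapp was 84.8%, 70.0%, 80.0% and 58.4% of Iapp plus Ins2 in EEC cells. In the comparison class it was 14.95%, 14.1%, 75.0% and 10.2%, the third value resting on 8 UMIs. Acinar cells had 20.3%, 15.9%, 55.6% and 11.2%. In 3 mice the exact intervals of EEC lay above those of both other classes, and in 4-week mouse 1, where insulin was scarce, they overlapped. In the insulin-rich cells there were 13.4, 9.11 and 8.47 Iapp UMIs per 100 of Ins2.

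Among the 5 deposited endocrine subtypes, Iapp was higher in 3. Of the 1269 cells with one of these subtypes 1207 were typed EEC, 57 were typed Tuft/EEC.Progenitor (all EEC-Progenitor by subtype) and 5 Tuft, and these 62 cells outside EEC held 7 Iapp UMIs. Delta (Sst+) cells, which make somatostatin, had 9.92 and 4.73 Iapp UMIs per cell at 2 weeks and 3.28 and 4.10 at 4 weeks. An Iapp count of 10 or more was found in 12 of 38, 5 of 45, 3 of 32 and 5 of 29 Delta cells. ECL (Tac1+) cells, insulin-rich cell 2 left out, had 3.40 and 8.30 UMIs per cell at 2 weeks and 12.7 and 2.14 at 4 weeks, with 4, 4, 7 and 2 cells of 10 or more, the insulin-rich cell counted. Ppy+ cells, which make pancreatic polypeptide, had 6.40 and 0 at 2 weeks and 2.38 and 7.31 at 4 weeks, with 3, 0, 3 and 2 such cells. Epsilon (Ghrl+) cells, which make ghrelin, had only 0.0874, 0.0465, 0.412 and 0.407 UMIs per cell. EEC-Progenitor (Neurog3+) cells had 0 to 0.0421 and no cell of 10 or more. The ranges of Delta, ECL and Ppy+ overlapped, and a few cells set the ECL and Ppy+ means.

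**Figure D4:**
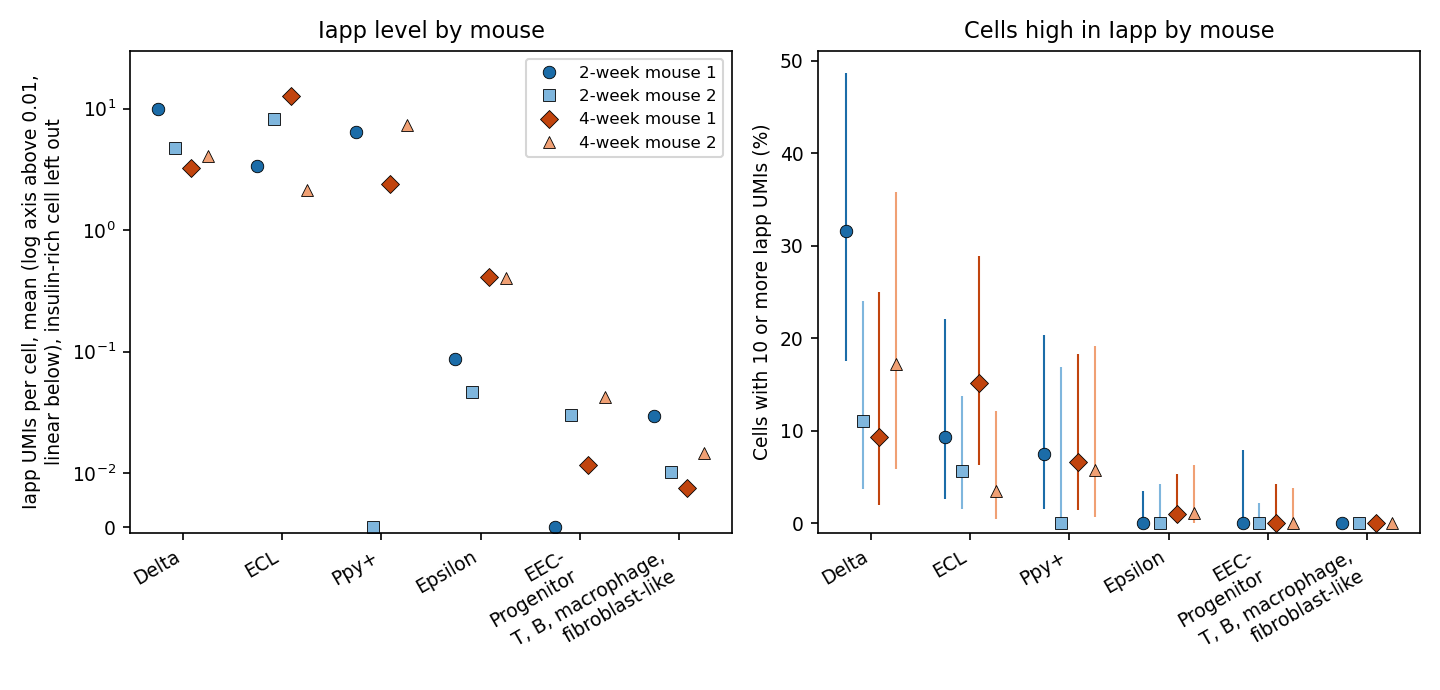
Left, mean Iapp UMIs per cell (y, log axis above 0.01 and linear below) by endocrine subtype and in the comparison class, 1 point per mouse, with the insulin-rich cell left out. Right, percent of cells with 10 or more Iapp UMIs with 95% exact binomial intervals, the insulin-rich cell counted in ECL and no interval drawn for the comparison class: Delta cells reach 31.6% in 2-week mouse 1, and EEC-Progenitor and comparison cells are at 0%.

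With cells of 10 or more Iapp UMIs set aside, Delta cells had the highest mean over mice, 1.63 UMIs per cell, ahead of Ppy+ at 0.369, ECL at 0.274 and Epsilon at 0.0670. With all cells included, ECL stood first at 16.4, insulin-rich cell 2 included, and Delta second at 5.51. Of the neighbours in the order under 10 UMIs, only ECL and Epsilon did not overlap. Iapp was spread among Delta cells: 78.9% and 53.3% of them had an Iapp UMI at 2 weeks and 28.1% and 48.3% at 4 weeks. Of the 25 Delta cells high in Iapp, 23 had 10 or more Sst UMIs (median 1367) and 24 had 10 or more of Pyy. Of the 17 such ECL cells, 10 had 10 or more Gip UMIs, 6 had 10 or more of Gast (gastrin), and 0 had 10 or more of Tac1, the gene in the subtype's name, which 26 of 179 ECL cells with 0 Iapp had. All 8 such Ppy+ cells had 10 or more Pyy UMIs and 6 had 10 or more of Ppy. Cells with 0 Iapp carried these hormones too. Of 66 such Delta cells, 65 had 10 or more Sst UMIs and 51 had 10 or more of Pyy. Of 113 such Ppy+ cells, 113 had 10 or more of Pyy and 67 of Ppy. Of the 179 such ECL cells, 35 had 10 or more of Gip and 21 of Gast.

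Few EEC cells high in Iapp carried Mafa, G6pc2 or Ucn3. Of the 52 EEC cells with 10 or more Iapp UMIs, Mafa, G6pc2 and Ucn3 were each found in 1 cell, insulin-rich cell 2, and the median was 3 genes of the beta cell list. These genes were rare in EEC in general, found in 9, 0 and 20 of the 1045 EEC cells with 0 Iapp. Slc30a8 was found in 5 of the 52 and in 12 of the 1045, and Slc2a2 in 2 and 5. Pdx1, which is also active in duodenal endocrine cells, was found in 33 of the 52 and 515 of the 1045, and Nkx6-1, a beta cell transcription factor, in 1 and 97. Insulin-rich cell 2 is counted among the 52 for Slc30a8, Slc2a2, Pdx1 and Nkx6-1, and it is the 1 cell with Nkx6-1. These shares were not tested. Outside EEC, 16 cells that were not insulin-rich had 10 or more Iapp UMIs: 10 islet endocrine-like cells without a type, 3 Ductal-like, 2 MucinDuctal and 1 Acinar cell. The islet endocrine-like cells (42, 53, 126 and 60 per mouse) also had Iapp below that threshold, at 0.474, 0.549, 0.228 and 0.491 UMIs per cell in cells under 10 UMIs, against 0.592, 0.240, 0.142 and 0.211 in EEC. Of the 16 cells, 12 had 10 or more Sst UMIs, and 9 had EYFP UMIs. Those 9 include the Ductal-like, MucinDuctal and Acinar cells, which have EYFP UMIs like all typed cells. Most of the 10 islet endocrine-like cells had 0 EYFP UMIs. The median depth of the 16 cells was 22178.5 UMIs, against 11992 in the 51 EEC cells. Whether the 16 cells hold RNA of more than 1 cell was not tested.

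Across 125 sums of counts by mouse and class, the genes with the pattern most like Iapp among 15569 were Scg2, a granule protein of endocrine cells (Pearson r = 0.80 on log2 CPM), Cdk5r2 (0.78), Gm35409 (0.78), Gdap1 (0.78) and Shisal2b (0.77). For Ins1 the highest values were lower, 0.43 for Actrt3 and Ucn3 and 0.40 for Gip and Mafa. For Ins2 they were 0.39 for Brsk2 and Ddx3y and 0.38 for Gm10334, Gip and Eif2s3y. Ddx3y and Eif2s3y are Y-linked, and they had 2468 and 3518 UMIs in 4-week mouse 2, the library with insulin-rich cells 1 and 3, and 0 UMIs in the other 3 libraries. The likeness thus mixes differences between classes with differences between mice, and the part of sex in the insulin levels cannot be told apart from that of the library. With the insulin-rich cells left out, the genes most like both insulin genes were Gm10334 (0.51 for Ins1 and 0.49 for Ins2), the acinar trypsinogen gene Prss1 (0.47 and 0.48) and Gm5771 (0.45 and 0.46), while Iapp stayed with Scg2 (0.77). In the same sums Ins1 and Ins2 were at 0.74 with each other, while Iapp was at 0.23 with Ins1 and at 0.21 with Ins2. Pairs of members were left out of all rankings above. Gm10334, Prss1 and Gm5771 were also among the 10 leading genes of a cluster of 30 untyped cells, all from 4-week mouse 2. The part of the mouse in their likeness to the insulin genes was not tested. The sums share libraries and differ in depth, and the values are a description.

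The cells outside the EYFP-positive table held very different shares of these genes in different mice. For Ins2 the share was 39.5% and 0.411% at 2 weeks, against 32.2% and 98.5% at 4 weeks. For Ins1 it was 42.2% and 0.339%, then 65.7% and 98.7%, and for Iapp 15.9% and 2.20%, then 14.5% and 90.1%. The means differed between the time points by 61.0 percentage points for Ins1, 45.4 for Ins2 and 43.2 for Iapp (two-sided exact permutation tests over 2 against 2 mice, p = 0.33, 0.667 and 0.667, adjusted over the 3 genes 0.667 each). The smallest p this design allows is 0.33. Without the 3 insulin-rich cells the differences were 16.5, 1.21 and 1.32 points. The cells outside that table were 36.7% and 31.9% of all cells at 2 weeks and 42.6% and 36.5% at 4 weeks.

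Whether the 3 genes changed between 2 and 4 weeks of caerulein was tested within 16 classes on counts summed per mouse. Of the 48 pairs of gene and class, 29 had enough counts to be tested, and edgeR's quasi-likelihood test with Benjamini-Hochberg adjustment called 0 of them. DESeq2 also called 0, where it called 0.143% of all pairs of gene and class in these classes and edgeR 0.022%. At an unadjusted p under 0.05 there was 1 member pair by edgeR, which passed 4.95% of all pairs, and 9 by DESeq2, which passed 1.88%. Of those 9 pairs, 8 were in classes that hold an insulin-rich cell. Few genes of any kind were called: 0% of those tested in all untyped cells, Epsilon, Tuft-2, Acinar, Acinar/MucinDuctal, Ductal-like, EEC, MucinDuctal and Tuft, and between 0.00995% and 0.159% in the other classes (Acinar.Prolif 0.00995%, Delta 0.0154%, islet endocrine-like 0.0229%, EEC-Progenitor 0.0453%, ECL 0.0816%, Tuft-3 0.114% and Ppy+ 0.159%). The p-values measure the spread between 2 mice per time point, of which 4-week mouse 2 alone had UMIs of the Y-linked genes named above.

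The 1 pair was Iapp in Epsilon cells, at 4.89 and 3.49 CPM at 2 weeks and 25.8 and 29.3 CPM at 4 weeks. The log2 change was 2.82 with a standard error of 0.383 (edgeR adjusted p = 0.0841, and from 1.1e-07 to 0.9999 over the alternatives). The mice of the time points did not overlap, but in each 4-week mouse 32 of the Iapp UMIs (42 and 35 in all) came from 1 cell. With cells of 10 or more UMIs left out, too few counts remained for a test. The pair was called without 2-week mouse 1 (log2 change 3.32) and without 2-week mouse 2 (2.52), fits that called 2.07% and 1.11% of all genes, and without the filter on low counts, beside 0.13% of all genes.

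Iapp did not pass the test in any of the 3 subtypes where it was high. In Delta cells it was at 703 and 366 CPM at 2 weeks and 333 and 342 CPM at 4 weeks, without overlap, with a log2 change of -0.66 (SE 0.409, edgeR adjusted p = 0.895). Without 2-week mouse 2 it was -1.10 and was called (edgeR adjusted p = 0.000345), as were 0.565% of all genes in that fit. In ECL cells the values were 304 and 3510 CPM, then 1300 and 217 CPM, a log2 change of -1.38 (edgeR adjusted p = 0.992) that was 0.67 without insulin-rich cell 2 and, without 2-week mouse 2, was 1.34 and called (edgeR adjusted p = 6.2e-05), as were 0.893% of genes there. In Ppy+ cells they were 432 and 0 CPM, then 171 and 528 CPM (log2 change 0.81, edgeR adjusted p = 0.975).

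The large fitted changes of the insulin genes rested on the insulin-rich cells. In EEC, Ins2 was at 10.4 and 6042 CPM at 2 weeks and 2.89 and 12.6 CPM at 4 weeks, and its log2 change of -8.49 (SE 4.34, edgeR adjusted p = 0.986) was -0.12 without insulin-rich cell 2. In all untyped cells Ins2 was at 40.01 and 9.80 CPM, then 2.37 and 4286 CPM, and the log2 change of 6.68 (SE 3.68, edgeR adjusted p = 0.760) was -0.32 without cells 1 and 3. In the islet endocrine-like cells among them the log2 change of Ins2 was 10.4 (edgeR adjusted p = 0.993), and without 4-week mouse 1 it was called at 11.4, as was Iapp there at 6.49, beside 0.341% of all genes. In Acinar cells, which hold no insulin-rich cell, Ins2 was at 8.74 and 5.47 CPM, then 0.460 and 6.45 CPM (log2 change -0.66, edgeR adjusted p = 0.998). Without 4-week mouse 2 this change was -3.48 and was called (edgeR adjusted p = 0.00814), as were 0.109% of genes in that fit.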

How the data were processed

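Single cells of 4 mice were analysed. The deposited values are UMI counts per gene and cell, made by the authors with Cell Ranger 4.0.0 and Seurat 3.2.3 on mm10, per the submitters' processing notes, and not normalized. Member counts of the smaller deposited tables differed by 0 from the merged one. Cells below 1000 UMIs were absent. The authors' treatment of doublets is not given in the sources used here, and no doublet caller was run. Libraries held 72459531 to 103610807 UMIs.

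Untyped cells were grouped by Leiden clustering with leidenalg in Python 3.11.15 (2000 variable genes without the members, 30 components, 15 neighbours, resolution 0.6). Clusters were named from at least 3 markers, and at least 50% of the class's markers, found in 20% of cells at a log2 fold of 1. No other class could hold a larger share, and the 10 leading genes of a cluster had to hold at least 1 marker. In its place, for classes other than acinar, all markers could be found with at most 25% of any other class's. The macrophage and fibroblast clusters were named by that exception, with no marker among those 10. Parts of the rule were completed after clusters had been seen. CPM are counts scaled by the UMIs of the mouse and class. Thinned values are the expectation at 1500 UMIs per cell, shallower cells left out (37, 48, 54 and 42 in the comparison class by mouse).

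Counts per mouse and class (at least 20 cells per mouse) were fitted over all genes with edgeR 4.0.16 in R 4.3.3 (quasi-likelihood, robust, TMM, filterByExpr) and, as an alternative, DESeq2 1.42.0, at an adjusted p of 0.05. In simulated EEC counts 191 of 200 changed genes were recovered with 9 false calls among 11915 genes, and in simulated Acinar counts 184 of 200 with 6 among 12530. Every simulated gene had the same dispersion, and the changed genes all passed the filter and changed by a fixed fold. This recovery does not measure the power for the members, whose sums rested on few cells. Likeness was Pearson's r of log2(CPM + 1) over genes of at least 100 UMIs. Named genes are the members, genes of fixed lists (beta cell, other hormones, granule, endocrine factors, acinar enzymes, EYFP) and the 5 most alike per member. Scg2, Tac1 and other marker genes enter through the labels and the marker list. Of 13 beta cell genes 12 were in the table. The members, lists and tests were chosen with earlier results of these data known. Alternatives were other thresholds, scalings, filters, clustering, and leaving out mice, plus leaving out the insulin-rich cells (alone or with 1 mouse), which was chosen after seeing the data.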

Additional observations from a re-analysis of the deposited data

How the results depend on the processing

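No paired analysis was possible because each library came from a different mouse, and the replicate numbers do not link mice across time points. The limits are 2 mice per time point, 3 cells that hold most of the insulin RNA, and unequal depth between classes, which shares of cells with a UMI do not correct for unless thinned. The count of cells with 10 or more UMIs moved with its threshold: at 5 UMIs it was 32 for Ins1, 72 for Ins2 and 116 for Iapp, and at 20 UMIs 3, 16 and 43. Leaving out 1 mouse gave 4 to 11 cells for Ins1, 6 to 34 for Ins2 and 46 to 57 for Iapp, lowest without 2-week mouse 1 for each gene. The mean Ins1 share was 28.8% over all cells in place of 26.3%. The cause of these shifts was not tested.

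No pair of gene and class was called in the main fit, 1 without the filter on low counts (Iapp in Epsilon, edgeR adjusted p = 1.1e-07, among 0.13% of all genes), and 1 to 3 with 1 mouse left out, where a lone mouse is assumed to vary like the others. Without 2-week mouse 1 these included Ins1 and Ins2 in ECL (log2 changes -13.5 and -12.0), which failed the filter with all mice, in a fit that called 1.86% of all genes. Of 29 log2 changes, 21 changed sign without at least 1 mouse. Their ranges were, for Iapp, -1.16 to 0.092 in Acinar, -2.64 to 1.73 in Acinar/MucinDuctal, -6.46 to 4.58 in Ductal-like, -3.20 to 1.34 in ECL and -0.15 to 10.5 in Ppy+. For Ins1 they were -3.23 to 0.43 in Acinar, -7.47 to 0.50 in Acinar.Prolif, -3.26 to 1.72 in Acinar/MucinDuctal, -2.14 to 1.44 in MucinDuctal, -0.15 to 1.27 in Tuft, -2.14 to 8.66 in all untyped and -3.03 to 16.8 in islet endocrine-like cells. For Ins2 they were -3.48 to 0.21 in Acinar, -2.95 to 0.31 in Acinar.Prolif, -1.94 to 1.82 in Acinar/MucinDuctal, -0.090 to 0.92 in Epsilon, -1.70 to 0.93 in MucinDuctal, -4.15 to 1.54 in Tuft, -7.18 to 0.70 in Tuft-2, -3.26 to 8.14 in all untyped and -7.53 to 12.0 in islet endocrine-like cells.

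Without the 3 insulin-rich cells the log2 change turned to -0.15 for Ins1 and -0.32 for Ins2 in all untyped cells, -1.83 for Ins2 in islet endocrine-like cells, 0.67 for Iapp in ECL and 0.15 for Iapp in EEC. Without cells of 10 or more UMIs it turned to -1.02 for Iapp in Ppy+, 0.050 for Ins1 in Acinar, 0.052 for Ins2 in Acinar.Prolif and 0.15 for Ins2 in EEC.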
